A study of Caenorhabditis elegans with 3 samples.

Results

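The eggshell of Caenorhabditis elegans is assembled by the egg itself from material made in the growing oocyte. An outer vitelline layer, a middle layer of chitin and an inner layer of chondroitin proteoglycans are followed by a lipid-rich permeability barrier that closes the embryo off from small molecules. The work is known to begin at fertilisation, when proteins held at the oocyte surface are handed over to the shell and cortical granules empty their contents. Transcripts of 10 genes of that structure were followed in late third-stage (late L3) hermaphrodite larvae, animals whose gonad is still growing. The genes were taken by symbol from a list: perm-2, perm-4, cbd-1, egg-1, egg-2, egg-3, chs-1, cpg-1, cpg-2 and cpg-3. All 10 were found, each with a value on every array, among 15143 genes tested.

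RNA from preparations (preps) 1, 2 and 3 of the larvae was hybridised on 3 arrays of 2 channels, each against a common mixed reference from wild type. Beside the code TP02, which all 3 preps share and which is not explained, the labels give the larvae no allele, strain, treatment or age in hours, and the sources used here do not give the stages and sexes that were mixed in the reference. Each value is a log2 ratio of the channels, deposited by the authors and centred here on the median of its array, so 0 is the array median and -1 is a level 2 times lower relative to it. The direction is likely late L3 over reference, the order in which the descriptions of the samples name the 2 RNAs. With the other direction every sign below would turn. The labels do not say whether the preps were separate cultures, so the p-values cover only how much these 3 samples scatter, and part of that scatter may be technical. Array values have no count depth, and the number of arrays limits their precision.

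Between 19855 and 19909 probes had a value on each array. The scaled median absolute deviation of all probes was 0.69, 0.77 and 0.39 log2 units in preps 1, 2 and 3, so prep 3 had the narrowest spread. Across all genes, the correlation between arrays lay between 0.71 and 0.78. That is a description across genes, which share the arrays and the reference and are not independent replicates.

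Of the 10 eggshell genes, 8 were lower in late L3 larvae than in the reference, 0 were higher, and 2, egg-1 and cpg-2, did not pass. The test was limma on the mean of the 3 preps against 0, with Benjamini-Hochberg adjustment over all genes and a threshold of 0.05. Among all genes tested, 11.9% were called lower and 11.4% higher. The median mean log2 ratio of the 10 genes was -2.59, against -0.0023 for all genes. All 8 lower genes lay below -1 on each array, which held for 3.98% of all genes. Fewer cells of a type and less RNA per cell cannot be told apart in RNA of whole animals.

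**Figure D1:**
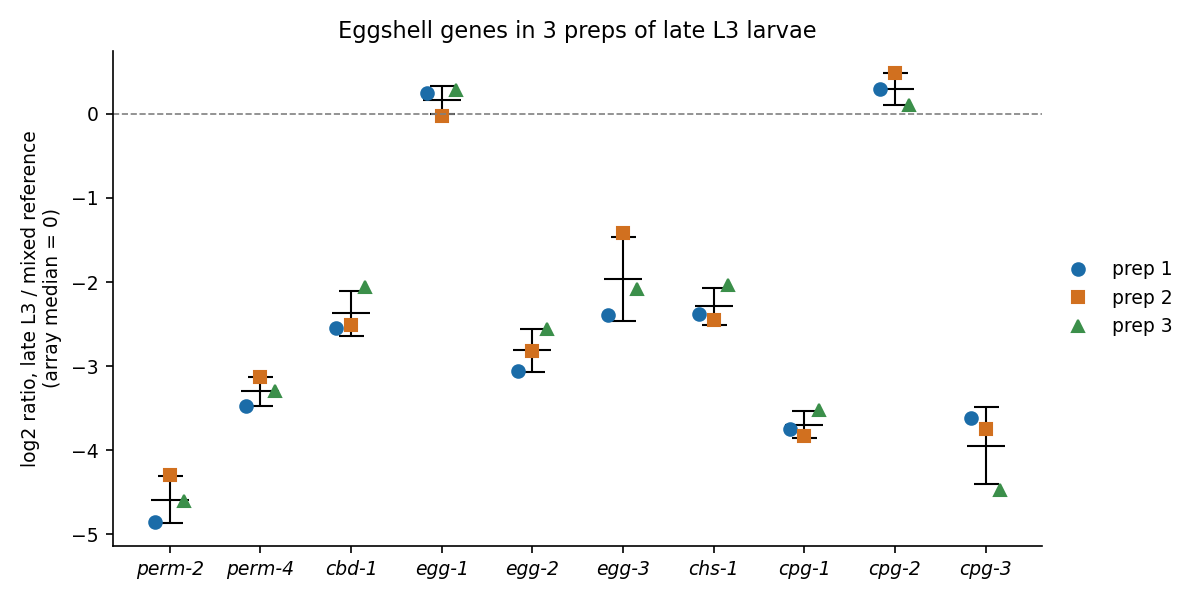
Log2 ratio of late L3 larvae over the mixed reference (vertical axis, array median at 0) for the 10 eggshell genes; coloured points are preps 1, 2 and 3, and black bars give the mean and SD of the 3. Perm-2 is lowest at a mean of -4.59, and egg-1 and cpg-2 sit next to the dashed line at 0.17 and 0.30.

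The vitelline layer is the outermost part of the shell. PERM-2 and PERM-4 are proteins of this layer that the embryo needs for an intact barrier. The log2 ratio of perm-2 was -4.86, -4.30 and -4.61 in preps 1, 2 and 3. It was the lowest of the 10 genes on each array, with a mean of -4.59 ± 0.28 (SD, n = 3), 24.1-fold lower than the reference (limma adjusted p = 6.55e-06). Ranked by mean from the lowest, perm-2 was number 10 of all 15143 genes.

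Perm-4 had log2 ratios of -3.47, -3.13 and -3.29. These lie close together, above every value of perm-2, and average -3.30 ± 0.17 (SD, n = 3), 9.85-fold lower (limma adjusted p = 1.08e-05). Both genes had the same order of preps, lowest in prep 1 and highest in prep 2. On each array perm-2 was below perm-4, by 1.38, 1.17 and 1.31 log2 units. An exact sign-flip test over 3 arrays gave a 2-sided p of 0.25 for this difference, the smallest that 3 arrays allow.

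CBD-1 is a protein with many chitin-binding domains that helps to anchor the vitelline layer and its partner proteins at the egg surface. Its gene had log2 ratios of -2.54, -2.51 and -2.06, so preps 1 and 2 were nearly equal and prep 3 was higher. The mean was -2.37 ± 0.27 (SD, n = 3), 5.18-fold lower (limma adjusted p = 6.04e-05). The ranges of perm-2, perm-4 and cbd-1 did not overlap.

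EGG-1 and EGG-2 are related transmembrane proteins of the oocyte surface with LDL receptor repeats, which act together in the entry of sperm. Their genes stood far apart. Egg-2 was at -3.06, -2.82 and -2.55, low in each prep, with a mean of -2.81 ± 0.25 (SD, n = 3), 7.02-fold lower (limma adjusted p = 2.55e-05). Egg-1 was at 0.24, -0.02 and 0.28, which straddles the array median.

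The mean of egg-1 was 0.17 ± 0.17 (SD, n = 3), with limma adjusted p = 0.610. Its 95% interval from limma, -0.30 to 0.63, does not reach a 2-fold difference of the ratio in either direction. Spot intensities were not used, so whether the egg-1 probe gave signal above background was not examined. Egg-2 was below egg-1 by 3.31, 2.79 and 2.84 log2 units in preps 1, 2 and 3, a 7.88-fold mean difference between their ratios (exact sign-flip p = 0.25, the smallest possible). Each of the 10 genes was measured by a single probe, so a second probe was not there to check either value. Related genes can share signal on an array, and whether this touched egg-1 or egg-2 was not tested.

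EGG-3 is a phosphatase-like protein without known enzyme activity that holds chitin synthase and the kinase MBK-2 at the oocyte cortex. Its gene had log2 ratios of -2.39, -1.41 and -2.08, and prep 2 was the least low. The mean of -1.96 ± 0.50 (SD, n = 3) was 3.89-fold lower (limma adjusted p = 0.000359). Egg-3 had the largest SD of the 10 genes and was the least low of the 8 that passed. In prep 2 its rank from the lowest was 748, against 215 and 236 in preps 1 and 3.

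Chs-1 encodes the chitin synthase that spins the chitin of the eggshell. It had log2 ratios of -2.38, -2.45 and -2.04, which overlap those of cbd-1 and of egg-3. The mean was -2.29 ± 0.22 (SD, n = 3), 4.89-fold lower (limma adjusted p = 6.51e-05).

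CPG-1 and CPG-2 are chondroitin proteoglycans with chitin-binding domains, which the egg needs jointly for its inner layer, and CPG-3 is another eggshell proteoglycan. Cpg-1 was at -3.74, -3.83 and -3.52, with a mean of -3.70 ± 0.16 (SD, n = 3), 12.97-fold lower (limma adjusted p = 8.32e-06). Its SD was the smallest of the 10. Cpg-3 was at -3.62, -3.74 and -4.47, so prep 3 lay below both others and the mean was -3.95 ± 0.46 (SD, n = 3), 15.4-fold lower (limma adjusted p = 8.64e-06).

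Cpg-2 differed from both, with log2 ratios of 0.30, 0.48 and 0.11, all slightly above the array median. Its mean of 0.30 ± 0.19 (SD, n = 3) did not pass (limma adjusted p = 0.349), and the 95% interval ran from -0.17 to 0.76. Cpg-1 was below cpg-2 by 4.04, 4.31 and 3.63 log2 units, a 15.9-fold mean difference, and cpg-3 was below cpg-2 by 3.91, 4.23 and 4.58 (exact sign-flip p = 0.25 for each). As for the egg genes, signal shared between related genes and signal over background were not tested for cpg-1 and cpg-2. Between cpg-3 and cpg-1 the difference was 0.12, 0.08 and -0.95, with its sign turned in prep 3 (exact sign-flip p = 1.0).

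**Figure D2:**
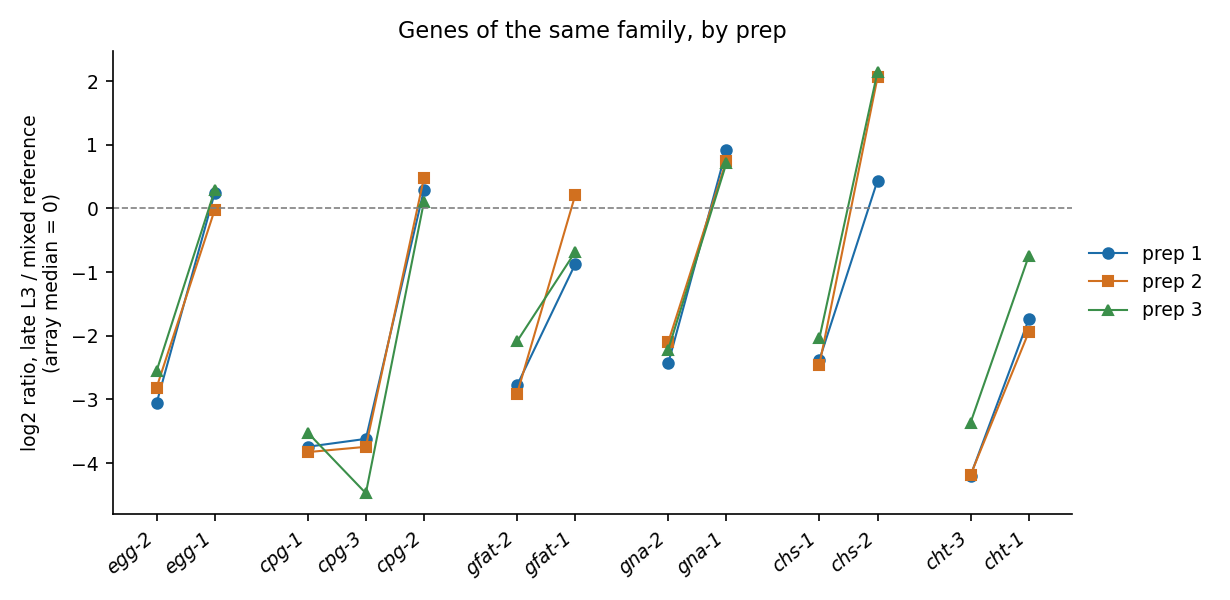
Log2 ratios of late L3 larvae over the mixed reference (vertical axis, array median at 0) for sets of genes of the same family or reaction, joined within each prep by a line; colours and symbols mark preps 1, 2 and 3. Egg-1 and cpg-2 lie near 0 above low relatives, and gna-1 and chs-2 lie above 0 while gna-2 and chs-1 lie below -2.

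Ordered by mean from the lowest, the 10 genes ran perm-2, cpg-3, cpg-1, perm-4, egg-2, cbd-1, chs-1, egg-3, egg-1 and cpg-2. Ranges of neighbours in this order overlapped between perm-2 and cpg-3, cpg-3 and cpg-1, cbd-1 and chs-1, chs-1 and egg-3, and egg-1 and cpg-2. The steps from cpg-1 to perm-4, perm-4 to egg-2 and egg-2 to cbd-1 had no overlap, but the gaps were small, at 0.05, 0.07 and 0.01 log2 units. By far the widest gap, 1.39 log2 units, separated egg-3 from egg-1. The order of the ratios says nothing of the order of transcript levels, which ratios do not give.

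Among all 15143 genes, the 8 lower eggshell genes ranked between number 10 and number 283 from the lowest, within the lowest 1.87%. Egg-1 and cpg-2 ranked 9505 and 10724, in the upper part of the middle of the distribution.

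**Figure D3:**
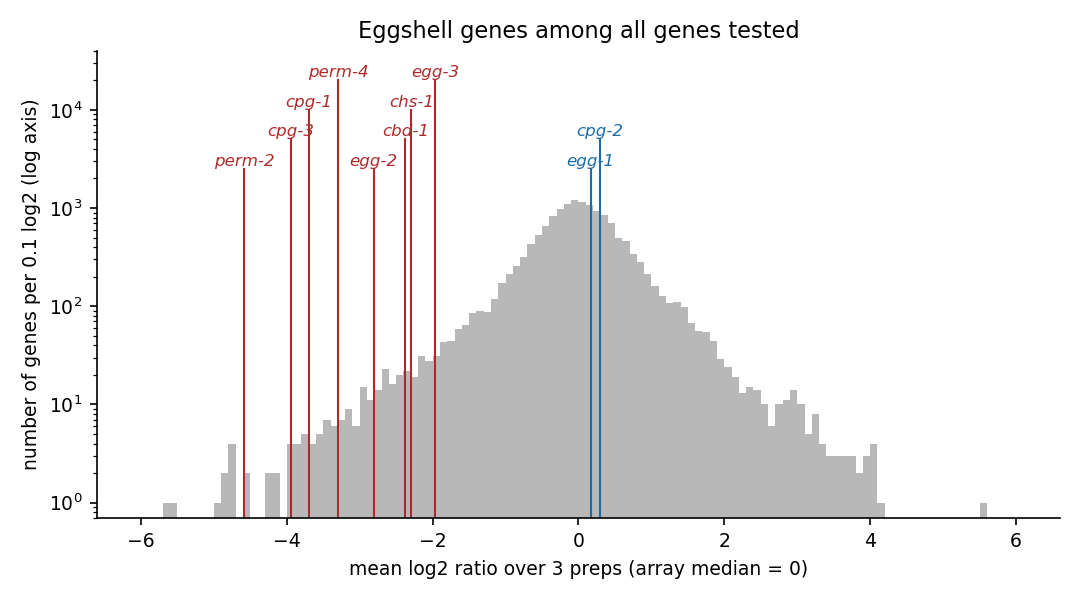
Distribution of the mean log2 ratio over 3 preps for all 15143 genes (horizontal axis in log2 units, vertical axis the number of genes per bin on a log scale), with lines at the 10 eggshell genes, red for those called lower and blue for those that did not pass. The 8 red lines lie between -4.59 and -1.96 in the thin lower tail, and the blue lines near the peak.

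The preps gave similar pictures of these genes. The median over the 10 was -2.80, -2.67 and -2.32 in preps 1, 2 and 3. Prep 1 held the lowest value of 5 of the 8 lower genes, prep 2 of 2 and prep 3 of 1, while the highest value lay in prep 3 for 4 of them. Relative to the spread of each array the order turned: the median over the 10 was -4.07, -3.46 and -5.89 times the scaled median absolute deviation, and prep 3, with the narrowest spread, was then the farthest out. The median SD of the 10 genes was 0.24 log2 units, against 0.34 over all genes.

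Other genes of the eggshell pathway were called lower more often than higher. Of 59 genes in 6 lists, 35 had values on all arrays, and 13 of these were lower, 4 were higher and 18 did not pass, against 11.9% lower and 11.4% higher among all genes. The share called higher was thus near that of all genes, and the median of the 35 was -0.27. The same shares of all genes are the background for the counts of each list below. Without prep 2 the counts were 10 lower and 0 higher. Over all genes, the calls then fell from 3524 to 1763, so a call lost without prep 2 is not particular to a gene named here.

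Chitin is built from activated N-acetylglucosamine. Of 5 genes for this precursor, 2 were lower and 1 was higher, with a list median of -0.45. Gna-2, an N-acetyltransferase of the precursor pathway that the eggshell needs, was at -2.44, -2.10 and -2.22, with a mean of -2.25 ± 0.17 (SD, n = 3; limma adjusted p = 6.53e-05). Its relative gna-1 was at 0.92, 0.75 and 0.71, above the array median in each prep (mean 0.79 ± 0.11, limma adjusted p = 0.0202), although it no longer passed when any 1 prep was left out, with adjusted p between 0.0674 and 0.0780.

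Gfat-2, of the first step of the hexosamine pathway, was at -2.78, -2.91 and -2.09, a mean of -2.59 ± 0.44 (SD, n = 3; limma adjusted p = 5.82e-05). Gfat-1, of the same step, was at -0.88, 0.21 and -0.68 and did not pass (limma adjusted p = 0.234). No pair of genes compared here, the perm, egg and cpg pairs included, was among the planned tests. The pairs of gna and gfat genes were set side by side after their values were seen. Gna-2 was below gna-1 by 3.04 log2 units on average and gfat-2 below gfat-1 by 2.14, on each array in both cases (exact sign-flip p = 0.25). C36A4.4, the fifth gene of this list, had a mean of 0.24 ± 0.56 and did not pass.

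Of 7 measured genes of chitin turnover and deposition, 4 were lower and 1 was higher. The chitinase gene cht-3 was at -4.20, -4.19 and -3.36 (mean -3.92 ± 0.48, limma adjusted p = 8.64e-06), a level of ratio between those of cpg-3 and cpg-1. Egg-4, a phosphatase-like partner of MBK-2 like EGG-3, was at -2.82, -2.54 and -2.11, with a mean of -2.49 ± 0.36 (limma adjusted p = 5.77e-05). Another chitinase gene, cht-1, was lower at -1.48 ± 0.64 (limma adjusted p = 0.00288).

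Spe-11, whose protein comes with the sperm and is needed by the new embryo, had a mean of -1.05 ± 0.69 (limma adjusted p = 0.0198), but its adjusted p was 0.0705 without prep 1 and 0.135 without prep 2. Chs-2, the chitin synthase of the pharynx, was at 0.44, 2.06 and 2.15, with a mean of 1.55 ± 0.96 (limma adjusted p = 0.00677), the opposite side from chs-1. Prep 1 was far lower than the others, and without prep 2 the adjusted p of chs-2 was 0.0952. The kinase gene mbk-2 did not pass, at -0.20 ± 0.18 (limma adjusted p = 0.535).

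Of 21 further genes with the cpg name, 6 were measured, and 1 was lower. Cpg-4 was at -1.59, -1.52 and -1.26, with a mean of -1.46 ± 0.18 (SD, n = 3; limma adjusted p = 0.000837). The other 5 had means between -0.51 (cpg-20) and 0.77 (cpg-18). Cpg-18 was at 0.21, 1.72 and 0.39 and did not pass (limma adjusted p = 0.0880). Without prep 1 its limma adjusted p was 0.00533, although preps 2 and 3 lay far apart. A fit with 1 prep left out leans on the spread that limma shares between genes, so little weight rests on that call.

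Chondroitin itself is made by the sqv enzymes and mig-22, which also serve the vulva. Of 7 measured genes, 3 were lower and 0 higher, with a median of -0.38. Sqv-1, a UDP-glucuronic acid decarboxylase, was at -0.997 ± 0.33 (limma adjusted p = 0.00959), the nucleotide sugar transporter gene sqv-7 at -0.98 ± 0.35 (0.0107) and the glucuronyltransferase gene sqv-8 at -0.94 ± 0.71 (0.0332). Each lost its call without at least 1 prep. Without prep 2, the adjusted p was 0.0506 for sqv-1 and 0.0740 for sqv-7, without prep 3 it was 0.0758 for sqv-1 and 0.0514 for sqv-8, and without prep 1 it was 0.198 for sqv-8. The means of these 3 genes were nearer to 0 than the means of the 8 lower eggshell genes.

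Lipids of the permeability barrier come from fatty acid synthesis and from enzymes of the oocyte. Of 7 measured genes, 2 were lower and 2 higher, with a median of 0.26. Dgtr-1, an acyltransferase needed for the barrier, was at -1.60, -2.21 and -1.004 (mean -1.60 ± 0.60, limma adjusted p = 0.00159), and perm-5, a lipid-binding protein gene, at -0.98, -1.25 and -0.89 (mean -1.04 ± 0.19, limma adjusted p = 0.00595). Perm-1 was at -0.57 ± 0.25 and did not pass (limma adjusted p = 0.0850).

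Pod-2 and fasn-1, the acetyl-CoA carboxylase and fatty acid synthase that supply lipid in many tissues, were higher at 1.43 ± 0.82 (limma adjusted p = 0.00645) and 0.93 ± 0.67 (0.0319). Both were highest in prep 2, and without it neither passed, with adjusted p = 0.0678 and 0.188, while calls over all genes also fell, as given above. Of 3 measured genes for the export of cortical granules, the caveolin gene cav-1 was lower, at -2.60, -2.60 and -2.84 (mean -2.68 ± 0.13, limma adjusted p = 2.69e-05). The GTPase genes rab-11.1 and rab-6.2, used throughout the animal, were at 0.51 ± 0.57 and 0.42 ± 0.38 and did not pass.

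**Figure D4:**
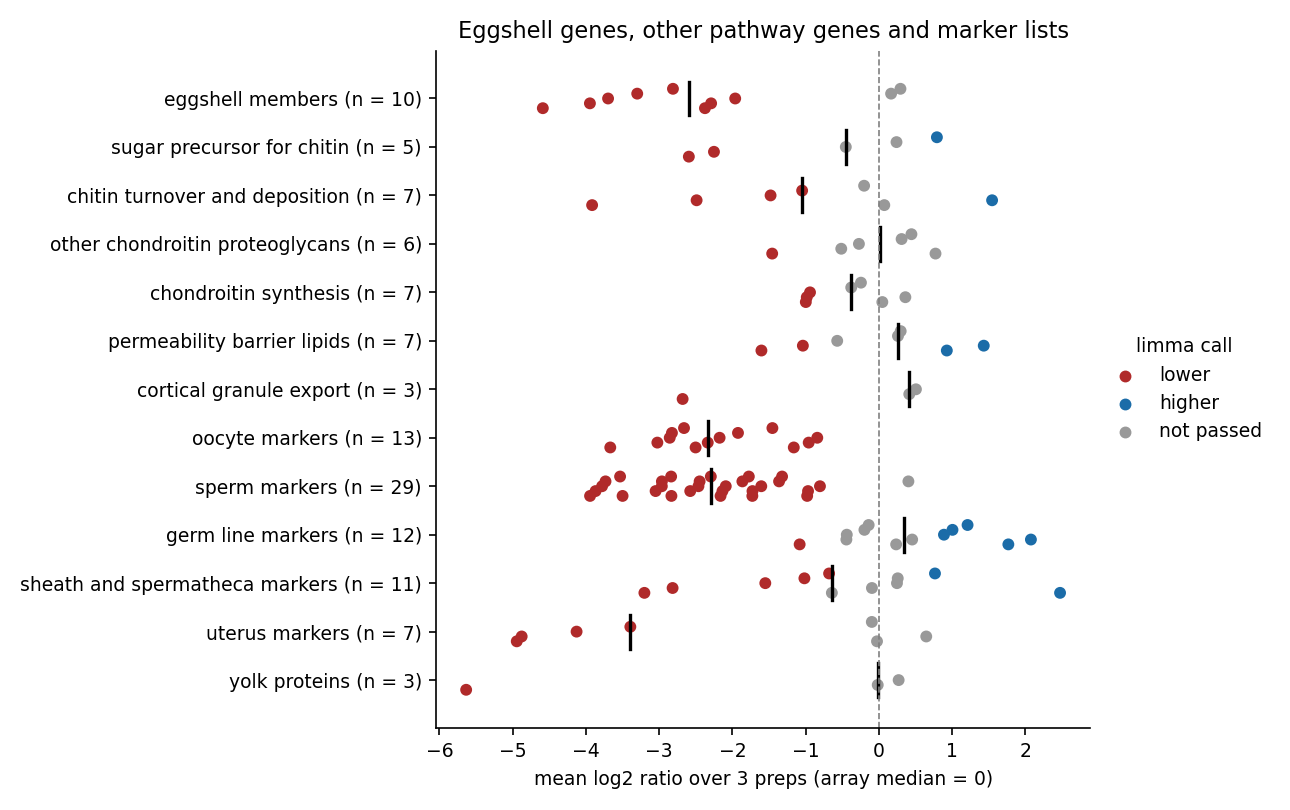
Mean log2 ratio over 3 preps (horizontal axis, array median at 0) for each measured gene of the eggshell list, the other pathway lists and the marker lists; points are genes, coloured by the limma call, and black bars are list medians. All 13 oocyte genes, 28 of 29 sperm genes (all of them near-identical msp genes) and 8 of 10 eggshell genes are called lower, and each pathway list has members that are not.

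Markers of oocytes, sperm, germ line, sheath and spermatheca and uterus were read beside these values, as were yolk protein genes. Of 13 measured oocyte genes, 13 were lower and 0 higher, with medians of -2.36, -2.54 and -2.11 in preps 1, 2 and 3, near the medians of the eggshell genes. Oma-2, of oocyte maturation, was at -3.67 ± 0.71, the RNA-binding protein gene puf-5 at -3.02 ± 0.39 and mex-5, a polarity gene of the early embryo, at -2.85 ± 0.74. When any 1 prep was left out, 12 of the 13 passed, with lin-41 lost without preps 1 and 3 and mex-3 without prep 2.

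Of 12 general germ line genes measured, 5 were higher and 1 was lower, with a median of 0.35. Among all genes, 11.4% were called higher and 11.9% lower. Glh-1 and glh-2, which encode helicases of the P granules, were at 2.08 ± 0.42 and 1.77 ± 0.47, and fbf-2, which keeps germ line stem cells dividing, at 1.21 ± 0.53. Without prep 2, 2 of the 5 higher germ line genes were still called, and fbf-2 had a limma adjusted p of 0.0617. Higher calls over all genes then also fell, from 1720 to 761.

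Genes of the major sperm protein, near-identical copies whose single values are uncertain, had 28 lower and 0 higher of 29, with a median of -2.29. The most extreme were msp-51 at -3.94 ± 0.25, msp-59 at -3.87 ± 1.12 and msp-33 at -3.78 ± 0.30. Of 11 sheath and spermatheca genes, 5 were lower, 2 were higher and 4 did not pass. Without prep 2 the counts were 3 lower and 1 higher. Tbh-1 was at -3.20 ± 0.49, tdc-1 at -2.82 ± 0.60 and mup-2, which muscle also uses, at 2.47 ± 0.28. Whether other markers of this list are also made outside the gonad was not examined.

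Of 7 uterus genes 4 were lower and 0 higher, all of them genes of uterine lumen proteins. Ule-3 was at -4.94 ± 0.56, ule-4 at -4.88 ± 0.58, ule-5 at -4.13 ± 0.48 and ule-1 at -3.39 ± 0.10. Among the 3 measured yolk protein genes, vit-2 was lower at -5.63 ± 1.24, the lowest mean of all genes, while vit-5 at 0.27 ± 0.24 and vit-6 at -0.01 ± 0.43 did not pass. Signal shared between related genes was not tested for the yolk protein genes either. Ratios to a reference cannot show that a transcript is absent. All 13 oocyte genes and 28 of 29 sperm genes were lower in the same libraries as the eggshell genes. So were 4 of 7 uterus genes and 5 of 11 sheath and spermatheca genes. The 29 sperm genes are all near-identical msp genes, so their values may not be separate measurements. In these libraries 2 sheath and spermatheca genes were higher, and of 12 germ line genes 5 were higher and 1 was lower. The uterus genes egl-13, cog-1 and lin-11 did not pass, at 0.65, -0.02 and -0.10. The part of these cells in the result was not tested.

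Genes with the most similar ratios were found by the distance between their 3 values and those of the eggshell genes, over 3 arrays. Nearest to the mean of the 10 genes (-2.55, -2.37 and -2.42 in preps 1, 2 and 3) were cey-3, msp-78, msd-4, sip-1, pals-32 and msp-152, at Euclidean distances from 0.21 to 0.28 log2 units. These 6 had means between -2.58 and -2.31 and were all called lower, which follows from how they were picked. The mean of the 10 genes includes egg-1 and cpg-2, which lie near 0. The distance with 3 arrays reflects mainly the mean ratio.

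For single genes, the nearest to perm-2 was col-36, a collagen gene, at a distance of 0.58, and the nearest to cpg-3 was msp-50 at 0.44. Few genes lie so far down, and these were the largest of the 10 distances. Closer matches were cpi-1 for perm-4 (0.24), ttr-17 for cbd-1 (0.18), col-178 for egg-2 (0.27), mei-2 for egg-3 (0.19), lys-3 for chs-1 (0.05) and clec-91 for cpg-1 (0.20). Egg-1 and cpg-2 were nearest to moc-1 (0.06) and elp-1 (0.03), which did not pass.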

How the data were processed

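The authors deposited 1 table of log2 ratios, and all values come from it. Base 2 was inferred from the deposited values, because it turns 100% of the ratios under 0.3 into whole thousandths (tolerance 0.01 thousandths). The sources used here do not give the authors' normalization, spot filters or dyes, and intensities of spots were not used. Of 20000 probes, 15655 named 1 gene, 198 several and 4147 none. Gene IDs (15569 probes) or accessions (7) gave current names through the RefSeq gene table, whose assembly is WBcel235. The sources used here name no build for the probes, so that table served only for names, chromosomes and which genes neighbour each other, and no sequence was used.

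Arrays were centred on medians of 0.06, -0.05 and -0.0014, values were averaged over the probes of each gene, and the 15143 genes measured on all 3 arrays went into limma 3.58.1 in R 4.3.3 (lmFit, eBayes, 2-sided). The SD shared between genes was 0.397, with 7.93 prior degrees of freedom. The spread of the reference itself does not enter the test. The procedure was also run on data simulated from its own fitted spread with independent genes, which does not test those assumptions. The members, the gene lists and the tests were chosen with earlier results of these data known. Named genes are the 10 members, up to 6 passing genes of each pathway list (the 2 farthest from 0 where none passed), 3 of each marker list and the genes nearest in profile. Genes named outside that rule (among them mbk-2, gfat-1, C36A4.4, perm-1, cpg-18, cpg-20, rab-11.1, rab-6.2, ule-1, egl-13, cog-1, lin-11, lin-41 and mex-3) were chosen after their values were seen. Alternatives covered centring, scaling, missing values, probes, spread, weights, test, threshold and left-out preps. Plots were made in Python 3.11.15 with matplotlib 3.10.9.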

Additional observations from a re-analysis of the deposited data

How the results depend on the processing

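The 16 alternatives gave 8 lower and 0 higher eggshell genes in 15 cases, and egg-1 and cpg-2 never passed. No mean of the 10 genes changed sign. The exception was the test per gene alone, without shared spread, which passed 0 eggshell genes, 0 of the other pathway genes and 0 of all genes after adjustment (adjusted p from 0.130 to 0.185 for the 8). There, 8, 12 and 3271 had an unadjusted p under 0.05. Mean log2 ratios ranged over the alternatives from -5.01 to -4.42 for perm-2, -4.42 to -3.68 for cpg-3 and 0.03 to 0.26 for egg-1. Each member had a single probe and a value on every array, so the alternatives for missing values and probes could not change its mean. Those that changed only the shared spread, the test or the threshold kept the means as well. Against a 2-fold difference, 5 of the 17 called pathway genes and 482 of the 3524 called genes passed, and at an adjusted p of 0.01, 1891 genes did. Leaving out each prep in turn gave 8 eggshell genes each time, 10 to 15 pathway genes and 1763 to 3199 genes in all, with the lowest counts without prep 2. These fits lean on the spread that limma shares between genes, and their p-values differed greatly. For perm-2 the limma adjusted p was 4.56e-43, 0.001345 and 1.54e-10 without preps 1, 2 and 3. Counts from these fits are thus a weak check, and differences between them need not come from the samples. No paired analysis was possible because the preps form a single group. Signal over background was not examined, since spot intensities were not used.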

Other observations

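The genes that flank the 10 eggshell genes on their chromosomes were looked at after the values were seen, with the order of protein-coding genes in the RefSeq table. Perm-4 and perm-2 are direct neighbours on chromosome IV and were both lower. Of the 36 other genes within 2 places on either side of a member, 31 had values, of which 3 were lower, 2 were higher and 26 did not pass, with a median log2 ratio of 0.04. Among all genes tested, 11.9% were lower and 11.4% higher. The 3 lower neighbours were R06C7.6, next to cpg-3 on chromosome I, at -2.21 ± 0.27 (SD, n = 3), B0244.9, next to egg-1 on chromosome III, at -1.63 ± 0.06, and tag-89, near cbd-1 on chromosome IV, at -0.81 ± 0.25. B0244.9 was low in each prep, at -1.64, -1.57 and -1.68, while egg-1 beside it was near 0. The 2 higher neighbours were the ADP-ribosylation factor gene arf-1, near egg-1, at 1.21 ± 0.25, and sec-31, a vesicle coat gene next to cbd-1, at 0.72 ± 0.27. The 3 measured neighbours of cpg-2, nhr-9, odd-1 and B0280.7, did not pass, with means between 0.04 and 0.41.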
